A study of Homo sapiens with 8 samples.

Results

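The genes described here are 10 genes of phosphatidylinositol 4-phosphate (PI4P) turnover and of membrane contact sites, chosen by name among the 61806 genes of the deposited table. They are the PI4 kinases PI4K2A, PI4K2B and PI4KA, the PI4P phosphatase SACM1L, the OSBP family genes OSBP, OSBPL9, OSBPL10 and OSBPL11, and the VAP anchors VAPA and VAPB. All 10 passed the filter on low counts and were tested. Their mRNA was compared between 4 libraries of N/TERT-1 cells treated with ethanol, the solvent control, and 4 libraries of the same cells treated with O/A. N/TERT-1 is an immortalized line of human epidermal keratinocytes, and all 8 libraries had the wild-type genotype and were grown in keratinocyte serum-free medium with epidermal growth factor and bovine pituitary extract. O/A combines oligomycin, an inhibitor of the mitochondrial ATP synthase, with antimycin A, an inhibitor of complex III of the respiratory chain. Together they depolarize mitochondria. The study treated cells with O/A for 4 hours before RNA was extracted, in 4 independent experiments per condition, and all libraries come from this single line.

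PI4P is made on endosomes and lysosomes by type II PI4 kinases and at the plasma membrane by the type III kinase PI4KA. It is removed by SAC1, the ER phosphatase encoded by SACM1L. At contacts between the ER and another membrane, OSBP carries cholesterol out of the ER in exchange for PI4P, while ORP9, ORP10 and ORP11 (encoded by OSBPL9, OSBPL10 and OSBPL11) exchange PI4P for phosphatidylserine or sterol. VAPA and VAPB sit in the ER membrane and hold many of these carriers at the contact. When a lysosome is damaged, PI4K2A makes PI4P on it and recruits these proteins, a route of lysosomal membrane repair. The comparison asks whether mRNA of this machinery changed upon mitochondrial depolarization.

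Total counts ranged from 17210404 to 20999927 per library, and each of the 10 genes had at least 634 counts in every library. All 9 keratinocyte markers examined were detected, with a summed level of 4063 to 4328 FPKM in ethanol and 3664 to 3830 FPKM in O/A. Of 5 melanocyte markers and 5 hematopoietic markers none reached 1 FPKM, and of 5 fibroblast markers only COL1A1 did, with at most 2.94 FPKM. FPKM is the read count divided by exonic length and library total. Past the limits given below, 1 keratinocyte marker rose and 2 fell (33.3% called, against 34.7% of all genes tested). The melanocyte, fibroblast and hematopoietic lists held 1 tested gene each, PMEL, COL1A1 and CD68. PMEL and COL1A1 were not called, and CD68 rose with a log2(FC) of 0.56 (edgeR adjusted p = 0.0350) on at most 33 counts per library. The part of these markers in the results was not tested. In bulk RNA, fewer cells of a kind and less RNA per cell cannot be told apart.

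PI4K2A and OSBP rose in O/A. PI4K2A, the lysosomal and endosomal kinase, rose by a factor of 1.32, and OSBP, the cholesterol carrier, by a factor of 1.19. Counts were scaled between libraries by the TMM method and tested by edgeR's quasi-likelihood test, and calls required an adjusted p-value up to 0.05 together with an absolute log2 fold change, log2(FC), above 0.25. By these limits 2 of the 10 genes were called, both upward, where 15.8% of the 14893 genes tested were called upward, 18.9% downward and 34.7% in either direction. By the adjusted p-value alone, 7 genes were higher in O/A (26.0% of all genes tested) and 1 was lower (27.7%), together 8 of 10 against 53.7%. The libraries of the conditions did not overlap for 8 of 10 genes against 47.6% of all genes tested, 6 with O/A higher (22.8%) and 2 with O/A lower (24.8%). The median log2(FC) of the 10 genes was 0.12, against -0.00040 for all genes tested. Their median absolute log2(FC) was 0.14, smaller than the 0.20 of all genes tested. Values in each library are given below as TMM-scaled CPM, the count scaled to a library of fixed size, in the order of replicates 1 to 4.

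**Figure D1:**
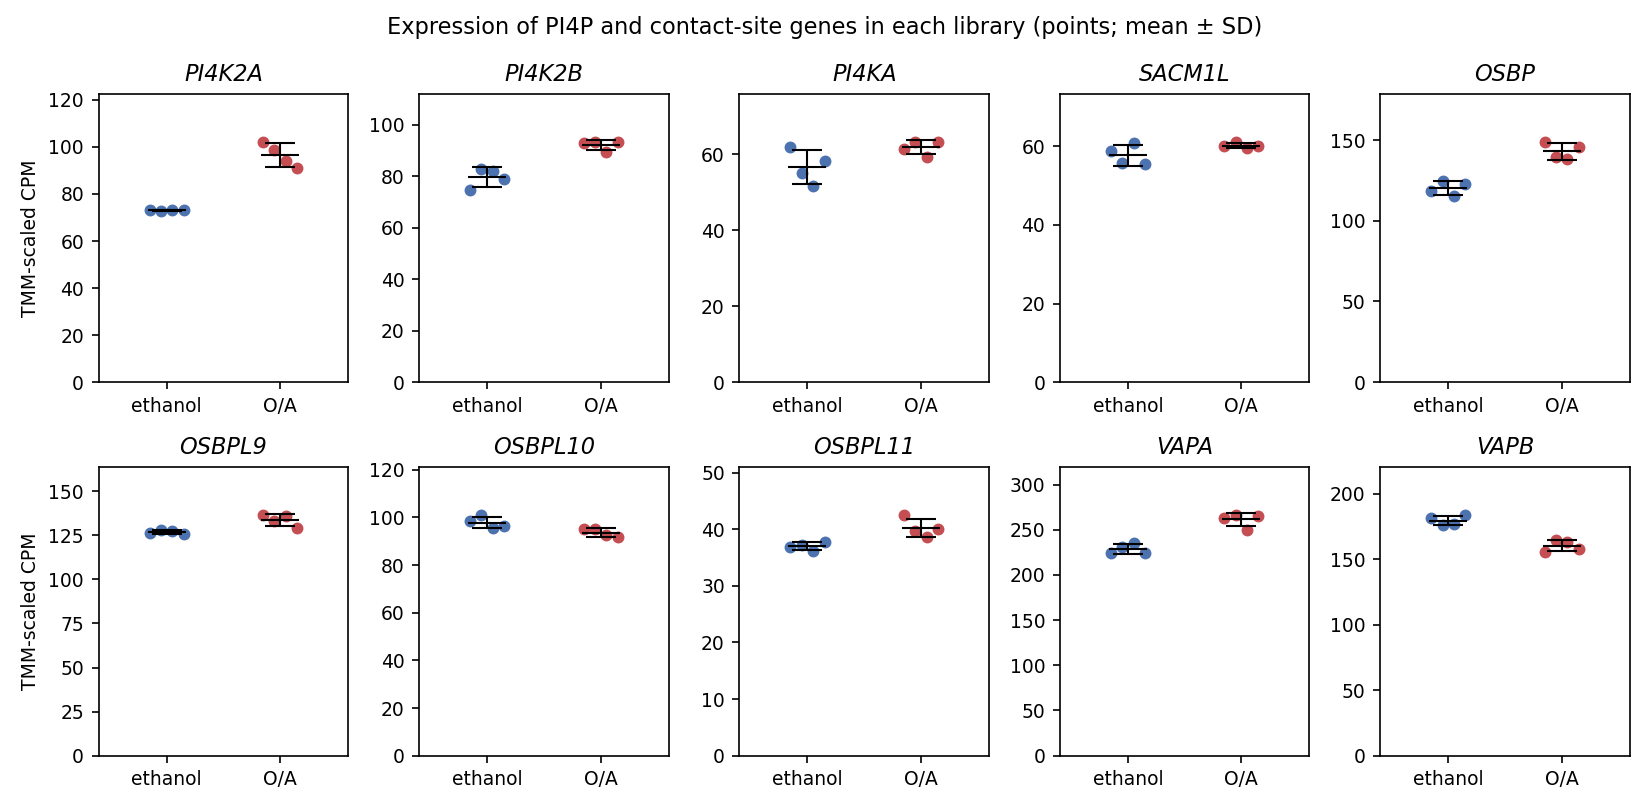
Each panel plots the TMM-scaled CPM (vertical axis, from 0) of 1 gene in the 4 ethanol libraries (blue) and the 4 O/A libraries (red), with the mean and SD as black bars. The O/A libraries of PI4K2A and OSBP lie above all ethanol libraries, those of VAPB lie below them, and those of SACM1L and PI4KA overlap with them.

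Among the PI4 kinases, PI4K2A lies on chromosome 10 of GRCh38 from 97640671 to 97676434. Its CPM was 73.0, 72.9, 73.3 and 73.1 in the ethanol libraries and 102, 98.8, 94.1 and 90.9 in the O/A libraries. The ethanol libraries were nearly identical, and the lowest O/A library lay well above them. The log2(FC) was 0.40 (standard error 0.037, edgeR adjusted p = 1.39e-13), and the 4 libraries of each condition did not overlap (exact permutation test, two-sided, p = 0.0286, the smallest p that 4 against 4 allows). Among all genes tested, 26.4% had a larger absolute log2(FC). The call held in all 14 alternative fits, with a log2(FC) between 0.34 and 0.43.

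PI4K2B encodes the other type II kinase, a largely cytosolic enzyme that associates with membranes. It had a CPM of 74.6, 82.9, 82.0 and 78.8 in ethanol and 92.8, 93.3, 89.2 and 93.4 in O/A, again without overlap. Its log2(FC) of 0.21 (standard error 0.036, edgeR adjusted p = 1.99e-06) lay inside the fold limit, with a 95% interval from 0.14 to 0.29. PI4KA, the large plasma membrane kinase, had a CPM of 61.9, 55.1, 51.5 and 58.2 in ethanol and 61.4, 63.1, 59.3 and 63.3 in O/A. Here ethanol replicate 1 lay above O/A replicates 1 and 3, so the conditions overlapped. The log2(FC) of PI4KA was 0.12 (standard error 0.044, edgeR adjusted p = 0.0177), and the adjusted p-value was above 0.05 in 5 of 14 alternative fits, with a highest value of 0.258. The value depended on single libraries, since it was 0.081 when ethanol replicate 3 was left out (edgeR adjusted p = 0.130) and 0.17 when ethanol replicate 1 was. The adjusted p-value was also above 0.05 without ethanol replicate 2 (0.0594) or O/A replicate 4 (0.0565).

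The reads of PI4KA are not certain, because the near-identical pseudogenes PI4KAP1 and PI4KAP2 lie on the same chromosome 22. Together they held reads amounting to 17.2% to 24.96% of those of PI4KA in ethanol and 19.9% to 25.7% in O/A. With their counts added, the difference in mean log2 CPM was 0.15 (exact permutation test, two-sided, p = 0.0286), against 0.13 for PI4KA alone (p = 0.0857 in the same exact permutation test). The adding of these counts was chosen after seeing the data. SNAP29, on the opposite strand, overlaps PI4KA by 411 bases and had 794 to 1045 counts per library. PI4KB, the Golgi PI4 kinase, was listed among the other pathway genes and rose as well, from 12.03 ± 0.354 to 14.2 ± 0.313 FPKM (SD, n = 4), with a log2(FC) of 0.28 (edgeR adjusted p = 5.56e-09). Its call was lost in 2 of 14 alternative fits, those by limma on FPKM (0.23 and 0.22).

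SACM1L, the phosphatase, did not differ detectably between the conditions. Its CPM was 58.9, 55.7, 60.8 and 55.5 in ethanol and 60.2, 61.2, 59.5 and 60.0 in O/A, and ethanol replicate 3 lay among the O/A libraries. The log2(FC) was 0.062 with a 95% interval from -0.020 to 0.14 (edgeR adjusted p = 0.200), and no alternative fit of 14 brought the adjusted p-value to 0.05. The ratio of counts between kinase and phosphatase was also compared inside each library, where scaling between libraries plays no part. The PI4K2A count was 1.21 to 1.32 times the SACM1L count in ethanol and 1.52 to 1.70 times in O/A. The mean log2 ratio was 0.34 higher in O/A (standard error 0.046, exact permutation test, p = 0.0286, adjusted p = 0.0367 over 9 pairs of genes).

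Among the OSBP family genes, OSBP lies on chromosome 11 from 59574398 to 59615774. Its CPM was 118, 125, 115 and 123 in ethanol and 149, 139, 138 and 146 in O/A. Every O/A library lay above every ethanol library. The log2(FC) was 0.25 (standard error 0.032, edgeR adjusted p = 3.07e-09), just past the fold limit, with a 95% interval from 0.19 to 0.32. In 7 of 14 alternative fits it fell inside that limit, with a lowest value of 0.20, while its highest adjusted p-value over all 14 was 0.000433. Leaving out 1 library did so for ethanol replicate 1 (0.24), ethanol replicate 3 (0.23), O/A replicate 1 (0.23) or O/A replicate 4 (0.24).

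The 3 ORP genes of the set moved less than OSBP. OSBPL9 had a CPM of 126, 128, 128 and 126 in ethanol and 136, 133, 136 and 129 in O/A, without overlap but with a log2(FC) of only 0.074 (standard error 0.030, edgeR adjusted p = 0.0375). OSBPL11 had a CPM of 37.0, 37.2, 36.1 and 37.7 in ethanol and 42.5, 39.8, 38.6 and 40.1 in O/A, which gave 0.12 as log2(FC) (standard error 0.047, edgeR adjusted p = 0.0294). Neither was called, and the adjusted p-value of OSBPL9 was above 0.05 in 8 of 14 alternative fits and that of OSBPL11 in 7. Among these were the fits without ethanol replicate 1 or O/A replicate 1 for both genes, without ethanol replicate 4 or O/A replicate 3 for OSBPL9, and without ethanol replicate 3 for OSBPL11. OSBPL10 pointed the other way. Its CPM was 98.5, 100.9, 95.6 and 96.3 in ethanol and 95.2, 94.99, 92.5 and 91.6 in O/A, with every O/A library below every ethanol library, yet its log2(FC) of -0.064 (standard error 0.034) had an edgeR adjusted p of 0.107. Under limma on log2(FPKM + 0.1) OSBPL10 had a log2(FC) of -0.11 with an adjusted p of 0.0209. On log2(FPKM + 1) limma gave -0.097 with an adjusted p of 0.0203. In the other 12 of 14 alternative fits the adjusted p-value of OSBPL10 was above 0.05. The median log2(FC) of all genes was -0.043 and -0.028 in the 2 limma fits, against -0.00040 in the main fit. The part of this shift in the OSBPL10 values was not tested.

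OSBPL9 overlaps over 9237 bases with NRDC, a gene on the opposite strand with 3792 to 4609 counts per library. OSBPL10 overlaps with ZNF860 on the opposite strand, a gene whose reads amounted to 11.01% of those of OSBPL10 in ethanol and 8.99% in O/A. Whether strand was used in counting is not given in the sources used here, so reads in these stretches, and in that of PI4KA and SNAP29, cannot be assigned with certainty. PI4K2A overlaps in its bounds over 33240 bases with a gene without symbol on the same strand, which had 0 counts in every library. PI4K2B overlaps over 40778 bases with SEPSECS-AS1 on the same strand, which had 4 to 15 counts per library. How reads shared by genes of the same strand were counted is not given either.

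**Figure D2:**
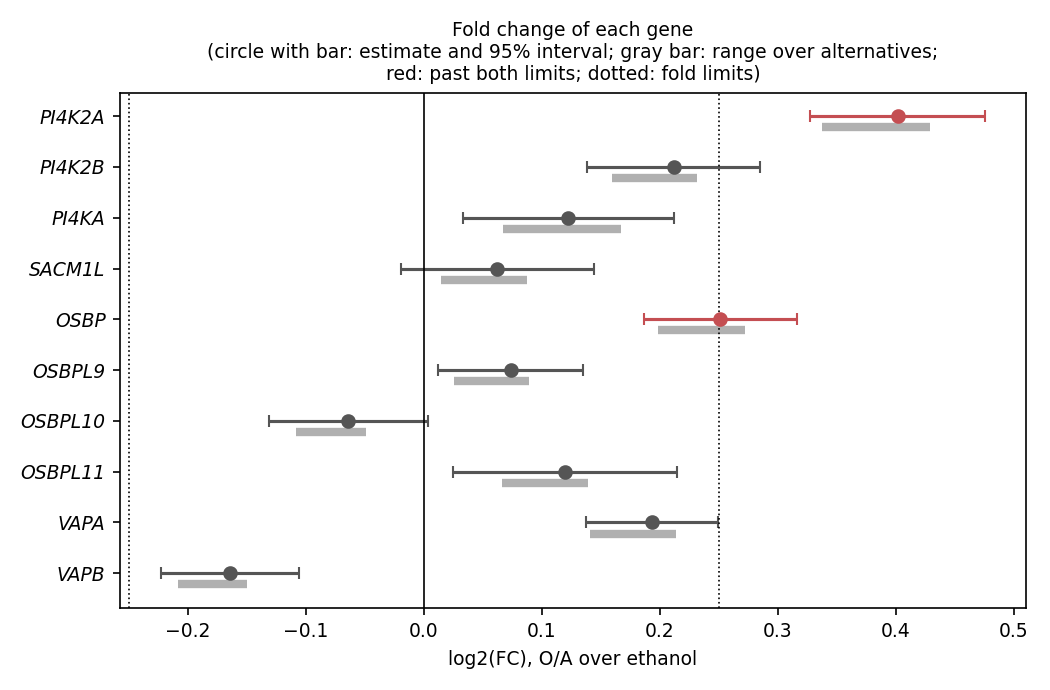
The log2(FC) of O/A over ethanol (horizontal axis) is plotted for each of the 10 genes with its 95% interval, and a gray bar below shows the range over the main and the alternative fits. PI4K2A lies past the dotted fold limit throughout at 0.34 to 0.43, the range of OSBP (0.20 to 0.27) crosses it, and VAPA and VAPB lie on opposite sides of 0.

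The VAP anchors differed from each other in direction. VAPA, on chromosome 18 from 9914016 to 9960021, had a CPM of 224, 230.4, 235 and 224 in ethanol and 263, 266, 250.3 and 266 in O/A. VAPB, on chromosome 20 from 58389229 to 58451101, had a CPM of 181, 176, 177 and 184 in ethanol and 155, 164, 163 and 158 in O/A. For both genes the conditions did not overlap, with O/A above ethanol for VAPA and below it for VAPB. The log2(FC) was 0.19 for VAPA (standard error 0.028, edgeR adjusted p = 4.42e-08) and -0.16 for VAPB (standard error 0.029, edgeR adjusted p = 3.71e-06). Both values lie inside the fold limit, and in all 14 alternative fits both kept their sign and passed at 0.05 by the adjusted p-value.

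Since both proteins bind the same kind of motif in their partners, the balance between the genes was also compared inside each library. The VAPA count was 1.22 to 1.33 times the VAPB count in ethanol and 1.53 to 1.69 times in O/A. The mean log2 ratio was 0.36 higher in O/A (standard error 0.045, exact permutation test, p = 0.0286, adjusted p = 0.0367 over 9 pairs). No pair examined shifted further. As VAPA had separated upward and VAPB downward, separation of their ratio and its p-value were fixed by those results and add no support.

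The other pairs compared genes of like or opposing function. The PI4K2A count relative to PI4KA was 0.27 higher in O/A on the log2 scale (standard error 0.073), OSBP relative to SACM1L 0.19 (0.064), OSBP relative to OSBPL9 0.18 (0.042) and OSBPL9 relative to OSBPL10 0.14 (0.022). OSBPL10 relative to OSBPL11 was 0.18 lower, at -0.18 (standard error 0.030). For these 5 pairs, as for both above, the libraries did not overlap (exact permutation test, p = 0.0286, adjusted p = 0.0367 over 9 pairs). For OSBPL9 with OSBPL10 and OSBPL10 with OSBPL11 this too was fixed beforehand, since the genes had separated in opposite directions. These pairs and that of VAPA with VAPB stayed among the 9 pairs of the adjustment, which lowers the adjusted p of the other pairs. The pair of type II kinases overlapped in 1 library of each condition. PI4K2A relative to PI4K2B was 0.19 higher in O/A (95% interval 0.064 to 0.31, exact permutation test, p = 0.0571, adjusted p = 0.0643). OSBPL9 relative to OSBPL11 differed by -0.047 (95% interval -0.13 to 0.038, exact permutation test, p = 0.200, adjusted p = 0.200).

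**Figure D3:**
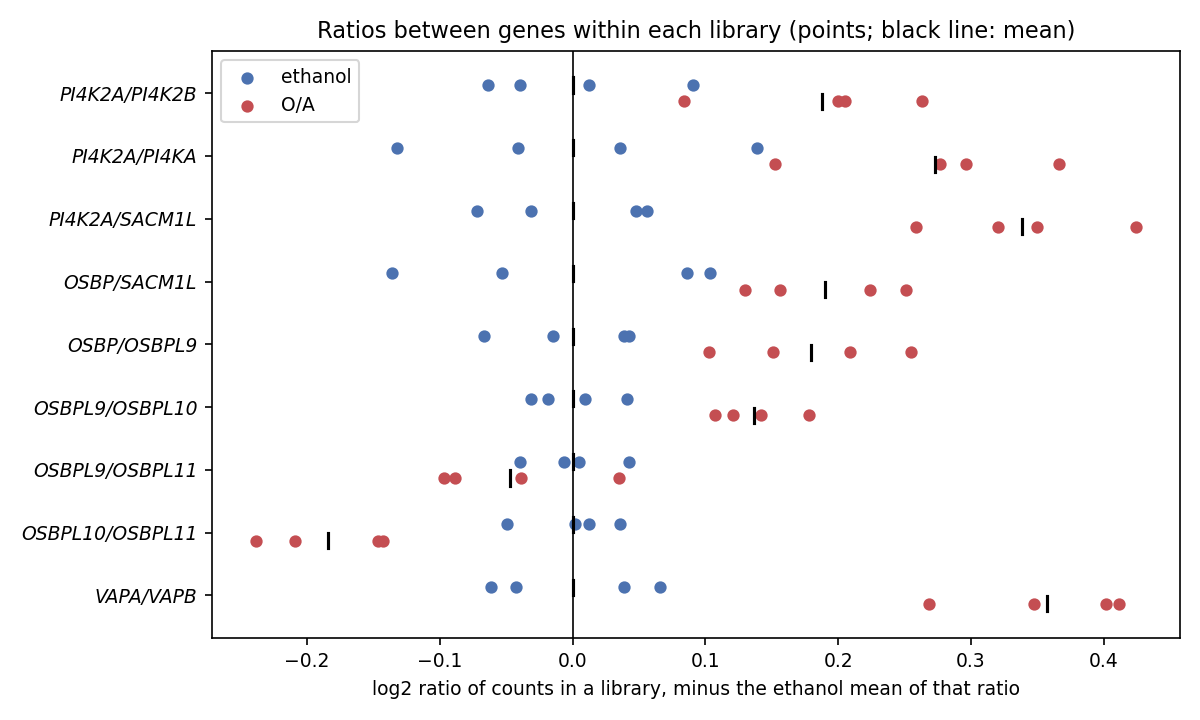
For each of 9 pairs of genes, the log2 ratio of their counts in a library (horizontal axis, set to 0 at the ethanol mean of that pair) is plotted for 4 ethanol libraries (blue) and 4 O/A libraries (red), with black lines for the means. The conditions separate for 7 pairs, furthest for VAPA/VAPB at 0.36 and PI4K2A/SACM1L at 0.34, and overlap for PI4K2A/PI4K2B and OSBPL9/OSBPL11.

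Levels of different genes were compared as deposited FPKM, which is per length. In ethanol the order ran from OSBP (23.8 ± 0.801 FPKM, SD, n = 4) through PI4K2B (21.9 ± 1.11), VAPA (19.5 ± 0.541), PI4K2A (17.6 ± 0.109), VAPB (17.4 ± 0.312) and OSBPL9 (12.5 ± 0.153) to OSBPL11 (8.17 ± 0.129), OSBPL10 (8.11 ± 0.192), SACM1L (7.98 ± 0.378) and PI4KA (5.04 ± 0.376). The ranges of PI4K2A and VAPB overlapped, as did those of OSBPL11 with OSBPL10 and of OSBPL10 with SACM1L, so these neighbours did not differ beyond their spread. All 10 genes lay above the median FPKM of the genes tested, which was 4.17.

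In O/A, OSBP remained first at 27.5 ± 0.997 FPKM (SD, n = 4), followed by PI4K2B (24.6 ± 0.572), PI4K2A (22.6 ± 1.204) and VAPA (21.7 ± 0.659), of which neighbours overlapped. PI4K2A, level with VAPB in ethanol, stood at 21.2 to 23.9 FPKM in O/A against 14.6 to 15.5 FPKM for VAPB (15.03 ± 0.411). OSBPL9 (12.8 ± 0.311), OSBPL11 (8.60 ± 0.355), SACM1L (8.07 ± 0.118), OSBPL10 (7.52 ± 0.158) and PI4KA (5.33 ± 0.169) followed without overlap between neighbours. The exonic length counts all annotated exons of a gene, from 3685 bases for PI4K2B to 12243 for OSBPL10, so FPKM is lower for genes whose cells use only part of those exons. On the FPKM scale, which is scaled by the library total and not by TMM, 6 of the 10 genes had an exact permutation p of at most 0.05, against 8 as TMM-scaled CPM, and OSBPL9 and OSBPL11 overlapped between conditions.

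The sequence before the transcription start is shown for OSBP, the carrier that rose, and for VAPA and VAPB, the paralogs whose values went in opposite directions. Windows of 250 bases before the RefSeq start were taken from the RefSeq annotation of GRCh38.p14 and were found for 9 of the 10 genes, not for PI4K2A. They are written from 5′ to 3′ on the strand of the gene, and capitals mark CCAAT (the CCAAT box), CACGTG (an E-box) and GGGCGG (a GC box), each searched on both strands.
OSBP, chr11:59615775-59616024, minus strand: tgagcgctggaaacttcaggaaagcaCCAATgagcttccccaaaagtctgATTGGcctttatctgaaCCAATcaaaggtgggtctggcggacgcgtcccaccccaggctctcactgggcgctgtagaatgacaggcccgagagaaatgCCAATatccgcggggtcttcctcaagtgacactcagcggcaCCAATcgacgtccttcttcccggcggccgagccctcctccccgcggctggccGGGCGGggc
VAPA, chr18:9913766-9914015, plus strand: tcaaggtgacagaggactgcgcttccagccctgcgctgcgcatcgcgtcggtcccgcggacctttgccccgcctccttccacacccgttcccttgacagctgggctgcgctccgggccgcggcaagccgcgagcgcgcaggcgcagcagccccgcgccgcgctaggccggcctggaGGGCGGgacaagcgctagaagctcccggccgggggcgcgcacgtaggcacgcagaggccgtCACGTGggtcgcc
VAPB, chr20:58388979-58389228, plus strand: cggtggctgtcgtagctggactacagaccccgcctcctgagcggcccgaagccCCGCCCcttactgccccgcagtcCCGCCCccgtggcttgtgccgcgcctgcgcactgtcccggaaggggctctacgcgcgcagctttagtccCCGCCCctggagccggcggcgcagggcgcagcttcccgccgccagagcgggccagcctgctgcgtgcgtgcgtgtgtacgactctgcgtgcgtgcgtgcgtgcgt

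The OSBP window held 5 CCAAT boxes, a number reached by 0.319% of 35116 such windows of all genes, while 32.0% held at least 1. This limit of 5 is the count of the OSBP window itself, so the share describes that window and tests nothing. CCAAT was found for 3 of 9 genes. The others were OSBPL9 and SACM1L, whose log2(FC) was 0.074 and 0.062. VAPA and VAPB held none. Members are counted here per gene and the shares of all genes per window. The 9 genes had 10 windows, the extra window being that of OSBPL9. Windows of PI4K2B and OSBPL10, and a window of OSBPL9, lay well inside the gene bounds of the deposited table. CACGTG stood in the windows of VAPA, PI4K2B and PI4KA, 3 of 9 genes, and in 6.34% of all windows. In VAPA it began 13 bases before the start. The GC box was found for 8 of 9 genes and in 42.6% of all windows. VAPB held 3 of them, as did PI4K2B, PI4KA and OSBPL11, and 13.9% of all windows held at least 3, a limit likewise set at their own count. TGATGCAA (a core of C/EBP-ATF response elements, in 0.772% of all windows) and TGACGTCA (the cAMP response element, in 1.65%) were in no window of these 9 genes. These are matches of letters in a short window and do not show that a factor bound there.

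Beyond these 10 genes, 51 others of PI4P metabolism and contact sites were listed from general knowledge, of which 47 were tested. In all, 12 rose and 6 fell past both limits, 38.3% where 34.7% of all genes tested were called, and their median log2(FC) was 0.075. The 4 genes not tested, EFR3B, PIP5K1B, MOSPD1 and GRAMD1B, had at most 6 counts in any library.

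Of the 8 other OSBP-related genes, all tested, 4 rose and 2 fell (75% called, against 34.7% of all genes tested), and their median log2(FC) was 0.19. OSBPL2 rose with a log2(FC) of 0.41 (edgeR adjusted p = 1.06e-07), from 4.46 ± 0.193 to 5.75 ± 0.497 FPKM (SD, n = 4). OSBPL6 (0.32), OSBP2 (0.29) and OSBPL8 (0.28), the last an ER-anchored exchanger of phosphatidylserine and PI4P, also rose. By limma on FPKM, OSBPL8 lost its call in both fits (0.23 and 0.22) and OSBPL6 in that with a pseudocount of 1 (0.18). The call of OSBP2 rests on 134 to 226 counts per library and was lost in 4 of 14 alternative fits, such as when ethanol replicate 3 (0.22) or O/A replicate 3 (0.24) was left out, and its libraries overlapped between conditions. OSBPL7 fell with a log2(FC) of -0.66 (edgeR adjusted p = 1.69e-07), from 2.01 ± 0.282 to 1.24 ± 0.147 FPKM (SD, n = 4), and OSBPL5, an ER-anchored relative of OSBPL8, fell by 0.40 on the log2 scale. Counted over the 12 genes of the OSBP family, 5 rose and 2 fell, so 58.3% were called, against 34.7% of all genes tested. The genes with a level near that of OSBP were OSBPL8, at 20.2 ± 0.642 FPKM in ethanol, and OSBPL3, which had a log2(FC) of -0.080 (edgeR adjusted p = 0.0239).

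Beside the VAP genes, MOSPD2, another ER protein with a VAP-like domain, rose from 4.39 ± 0.0591 to 7.05 ± 0.312 FPKM (SD, n = 4). Its log2(FC) was 0.73 (standard error 0.051, edgeR adjusted p = 1.47e-17), larger than that of any of the 10 genes. MOSPD3 had a log2(FC) of -0.12 (edgeR adjusted p = 0.290).

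Among genes of PI4P synthesis and supply of phosphatidylinositol, 2 of 12 tested rose and 1 fell (25% called, against 34.7% of all genes tested). HYCC1 (listed as FAM126A in the deposited table), a subunit of the complex that places PI4KA at the plasma membrane, rose with a log2(FC) of 0.28 (edgeR adjusted p = 1.35e-11), a call lost in 2 of 14 alternative fits (0.23 and 0.21 by limma on FPKM). PITPNM2, a phosphatidylinositol transfer protein, fell by 0.46. The most abundant gene of the list, PITPNB, went from 40.2 ± 0.483 to 35.9 ± 0.858 FPKM (SD, n = 4), a log2(FC) of -0.12 inside the fold limit.

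Genes that convert or dephosphorylate PI4P and its products gave 3 rises and 2 falls among 11 tested (45.5% called, against 34.7% of all genes tested). The kinases that turn PI4P into PI(4,5)P2 split, since PIP5K1A rose from 23.6 ± 0.392 to 29.5 ± 0.886 FPKM (SD, n = 4, log2(FC) 0.37, edgeR adjusted p = 4.90e-15) and PIP5K1C fell from 5.43 ± 0.339 to 3.50 ± 0.126 FPKM (SD, n = 4, log2(FC) -0.59, edgeR adjusted p = 1.31e-13). PIP4P1 (0.37) and PIP4P2 (0.31), phosphatases of PI(4,5)P2 on lysosomes, both rose. By limma on log2(FPKM + 1), PIP4P2 lay inside the fold limit (0.22). INPP5E, a phosphatase known from primary cilia, fell by 0.32.

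Of the other contact-site and PI4P-binding genes, 2 of 14 tested rose and 1 fell (21.4% called, against 34.7% of all genes tested). ATG2A, a lipid transfer protein of autophagosomes and of lysosome repair, rose from 3.19 ± 0.230 to 5.15 ± 0.176 FPKM (SD, n = 4), with a log2(FC) of 0.74 (standard error 0.053, edgeR adjusted p = 3.62e-17). ATG2B, its paralog, had a log2(FC) of 0.075 (edgeR adjusted p = 0.313). PLEKHA3, which encodes the PI4P-binding protein FAPP1, rose with a log2(FC) of 0.40 (0.23 and not called by limma on log2(FPKM + 1)), and ZDHHC7, a palmitoyltransferase of the Golgi, fell by 0.41. GOLPH3, a Golgi protein that binds PI4P and the most abundant gene of the list, had a log2(FC) of 0.075 (edgeR adjusted p = 0.0648).

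**Figure D4:**
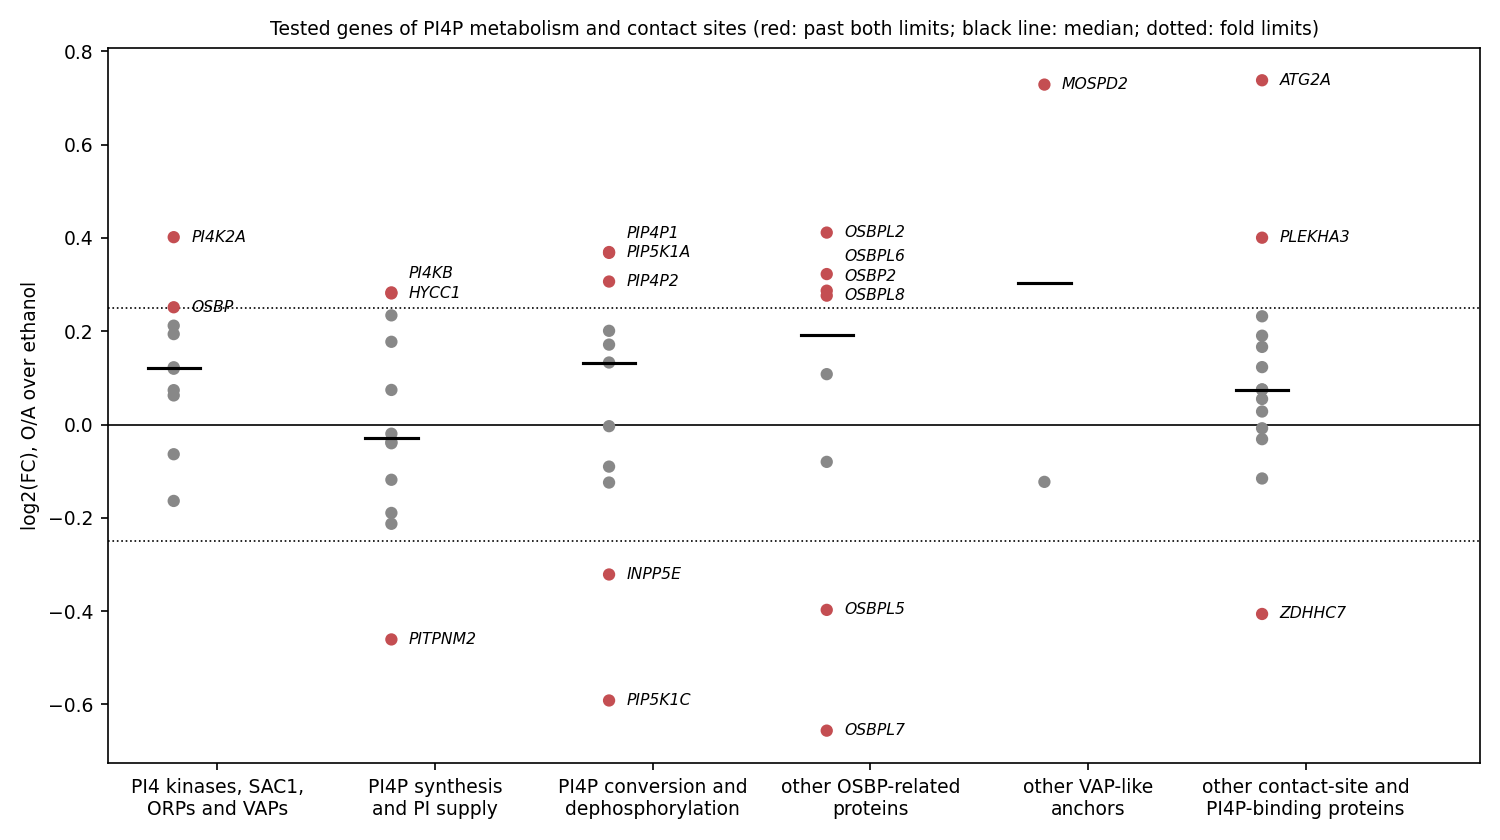
The log2(FC) of O/A over ethanol (vertical axis) is plotted for the 10 genes described and for the tested genes of 5 further lists, with genes past both limits in red and named, and the median of each list as a black line. ATG2A (0.74) and MOSPD2 (0.73) lie highest and OSBPL7 (-0.66) and PIP5K1C (-0.59) lowest, outside the span of the 10 genes.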

How the data were processed

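mRNA was measured in 8 libraries, 4 ethanol and 4 O/A, grouped by their labels. In the study's O/A treatments oligomycin was at 10 µM and antimycin A at 4 µM. The authors used HISAT2 2.0.1 to align the read pairs to GRCh38.p13 and counted them on Ensembl genes with HTSeq 0.6.1, and the deposited counts are raw. The Ensembl release and strand setting are not given in the sources used here. The FPKM values deposited by the authors lay within 0.0050 of the count divided by exonic size and library total. A table of the authors' DESeq2 comparison (log2 fold changes, p-values) was not used.

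The test was that of edgeR 4.0.16 under R 4.3.3 (TMM scaling, robust quasi-likelihood test, Benjamini-Hochberg adjustment) over the 14893 of 61806 genes that reached 10 counts in 4 or more libraries. Standard errors were the log2(FC) divided by the root of its F statistic. Single values and log2 count ratios within libraries were compared by two-sided exact permutation tests. The edgeR, DESeq2 and limma fits were tried on simulated counts, and the permutation tests were not. Alternatives were DESeq2 1.42.0, limma 3.58.1 on log2(FPKM + 0.1) and log2(FPKM + 1), median-ratio scaling, no filter, the replicate number as a block, other fold limits and each library left out. The genes and lists were chosen with earlier results of these data known. Named were the 10 genes, and of each further list the called genes (at most 8) and the most abundant one, with close neighbours, pseudogenes and the 3 genes with the most similar profiles. OSBPL3, MOSPD3 and ATG2B, and the genes not tested, were named after their values were seen. Libraries of a condition differed by 1.78 to 5.95 in chi-square per degree of freedom, so none was a copy.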

Additional observations from a re-analysis of the deposited data

Results flagged for a closer look

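Among 78 groups of 4 values, 3 held a library that stood well apart from its group, and chance gives about 3.9. For PI4K2B this was O/A replicate 3, whose TMM-scaled CPM of 89.2 was below the 92.8 to 93.4 of its group and still above every ethanol library. For PIP4P1 it was O/A replicate 4 at 25.5 CPM, where its group had 24.6. For ZDHHC7 it was O/A replicate 1 at 61.0 CPM, where its group had 65.6 to 66.2.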

How the results depend on the processing

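The direction of each of the 10 genes held in all 14 alternative fits. PI4K2A was called in all of them, and OSBP, near the fold limit, in 7. The number called among the 10, 2 in the main fit, was therefore 1 without a filter, 1 under limma with either pseudocount, 0.1 or 1 FPKM, and 1 to 2 with libraries left out (1 without ethanol replicate 1, ethanol replicate 3, O/A replicate 1 or O/A replicate 4). Without a limit on log2(FC) it was 8 (7 up, 1 down), and above an absolute log2(FC) of 1 it was 0. For the 51 further genes, 18 were called (12 up, 6 down), and this went to 14 on log2(FPKM + 0.1) (8 up) and to 11 on log2(FPKM + 1) (5 up), the cause of which was not tested, to 30 without a fold limit (19 up, 11 down) and to 0 above 1 (0 up, 0 down). Over all genes tested, 5165 were called, 7999 without a fold limit (3868 up), 797 above 1 (382 up, 415 down), and 1514 upward on log2(FPKM + 1). The median log2(FC) of all genes moved by less than 0.1 in every fit, from -0.043 on log2(FPKM + 0.1) to 0.023 without a filter. With libraries left out, the change in the VAPA to VAPB ratio lay between 0.34 and 0.39 and that of PI4K2A to SACM1L between 0.31 and 0.36.

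Deviations of libraries with the same replicate number correlated at 0.058, -0.015, -0.0067 and 0.082. Whether such libraries came from the same experiment is not stated, and these values cannot show that they did not. With a block for that number, 2 of the 10 genes were called, 18 of the further genes and 5160 of all genes. Sign flips of same-numbered differences gave 0 genes and 0 pairs at 0.05, since 4 pairs allow no p below 0.125. Depth was not limiting for the 10 genes, but EFR3B, PIP5K1B, MOSPD1 and GRAMD1B had too few reads for a change to be detectable.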

Other observations

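The genes whose profile over the 8 libraries was most like that of PI4K2A, by Euclidean distance of centred log2 CPM among 11395 genes with a mean of at least 1 FPKM, were BLZF1 (distance 0.072), VAMP4 (0.073) and PPP1R2 (0.075). Their log2(FC) was 0.41, 0.43 and 0.40. For OSBP they were FAF2 (distance 0.068), TNFAIP1 (0.084) and RAB32 (0.090), with a log2(FC) of 0.27, 0.24 and 0.26. The profiles include the difference between the conditions, so genes with a fold change of like size lie close by construction.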
